A study of Mus musculus with 50 samples.

Results

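Cohesin is the protein ring that holds sister chromatids together, and its subunits come in a mitotic and a meiotic version. The RNA levels of these subunits were followed in single mouse oocytes with and without a conditional knockout of Zfp36l2. The subunits were taken by gene symbol from a list of 9 genes. Rec8, Rad21l, Smc1b and Stag3 are the meiotic versions, Rad21, Smc1a, Stag1 and Stag2 the mitotic versions, and Smc3 is common to both. Of the 9 genes, 8 were read from the count table, among its 16614 rows. Rec8 was not analysed here, so the meiotic class holds 3 genes and the mitotic class 4.

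The knockout group holds 24 oocytes from 4 females labelled as conditional knockouts of Zfp36l2 (cKO-Zfp36l2), with 1, 7, 8 and 8 oocytes per mouse. The control group holds 26 oocytes from 4 females that carry the floxed, still functional allele (F/F), with 5, 7, 7 and 7 oocytes per mouse. ZFP36L2 is an RNA-binding protein that recognises AU-rich stretches near the 3′ end of transcripts and hastens their decay. All females were 5 weeks old and had received 10 IU of PMSG, a hormone that makes follicles grow, 46 h before collection. Germinal vesicle oocytes, which are arrested in meiotic prophase, were kept at that stage with milrinone at 5 µM. They were freed of cumulus cells and of the zona pellucida, and a library was made from each oocyte. The sources used here do not give the promoter that drives Cre or the strain of the mice.

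A cohesin ring is built from an SMC1 protein and SMC3, which form long hinged arms, a kleisin that closes the ring, and a STAG protein that binds the kleisin. In meiosis SMC1β, the kleisins REC8 and RAD21L, and STAG3 replace SMC1α, RAD21, and STAG1 or STAG2 on much of the chromosome. Meiotic cohesin is loaded in the fetal ovary, holds homologues and sisters together through the long prophase arrest, and is cleaved by separase at the meiotic divisions. The values here are RNA and say nothing of the protein already on the chromosomes.

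Total counts ranged from 1746007 to 6233840 per oocyte, with a median of 5211210 in knockout and 4761241 in floxed oocytes. Mice were the replicates. Counts were therefore summed over the oocytes of a mouse, and the sums ranged from 4332108 to 44498770 counts. The lowest sum was that of knockout mouse 1, from which a single oocyte was sequenced. Zfp36l2 itself was low in both genotypes, at 2.77, 1.61, 2.56 and 1.06 CPM (counts scaled to the same library total for every mouse) in knockout mice 1 to 4 and 3.51, 1.96, 4.17 and 3.44 CPM in floxed mice 1 to 4. It did not pass the test (log2 fold change −0.78, SE 0.43, edgeR adjusted p = 0.208), and the row counts the whole gene, so it does not check the genotype labels. All 10 oocyte markers looked at were present, with a summed level of 4550 to 5120 CPM in knockout and 4580 to 5630 CPM in floxed mice. The 11 cumulus and granulosa cell markers with a row summed to 163 to 297 CPM in knockout and 161 to 234 CPM in floxed mice. None of these 21 markers was called by edgeR (2 cumulus markers higher and 1 oocyte marker lower at an unadjusted p under 0.05, and 1 cumulus marker, Inha, higher by DESeq2). None was at 0 throughout, and the highest mouse sum of a cumulus or granulosa marker ran from 1.00 CPM for Foxl2 to 101 CPM for Cyp19a1, with Inha, Nr5a2 and Kitl above 50 CPM. The part of such RNA in the results was not tested.

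Smc1b and Stag3 fell in knockout oocytes, Stag1 rose, and the other 5 subunits did not pass the test at an adjusted p under 0.05. All 8 passed the filter on low counts. The 2 subunits that fell compare with 13.2% of all 15029 tested genes called lower, and the 1 that rose with 14.4% called higher. In all, 3 of 8 subunits were called, where 27.6% of all genes were. The knockout and floxed mice did not overlap for 2 of 8 subunits, against 31.0% of all genes, so neither count marks the family as more affected than the rest of the transcriptome. The median log2 fold change was −1.26 over the 3 meiotic subunits and 0.42 over the 4 mitotic subunits, beside −0.006 over all genes. Neither class was uniform, since the meiotic Rad21l had a log2 fold change of −0.06 and the mitotic Smc1a one of −0.28.

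Among the SMC proteins, the meiotic Smc1b (chromosome 15, 85064689 to 85131964, minus strand, mm10) fell 2.40-fold in knockout oocytes. SMC1β is required for cohesion and for the length of the chromosome axes in meiosis. Its level was 35.6, 25.6, 33.1 and 31.9 CPM in knockout mice 1 to 4, against 52.0, 64.5, 89.5 and 86.4 CPM in floxed mice 1 to 4. Every knockout mouse lay below every floxed mouse, and the knockout values spanned a narrower range. The means were 31.5 ± 4.25 CPM in knockout and 73.1 ± 17.9 CPM in floxed mice (SD, n = 4 each). On the log2 scale the fold change was −1.26 (SE 0.21, 95% interval −1.72 to −0.80, edgeR adjusted p = 0.00262), and the call held under all 16 alternatives tried. Single knockout oocytes ranged from 13.8 to 46.6 CPM with a median of 31.8, and single floxed oocytes from 27.7 to 110.1 CPM with a median of 76.0. All 24 knockout oocytes lay below the floxed median, and 24 of 26 floxed oocytes lay above the highest knockout oocyte.

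Smc1a, the mitotic counterpart (chromosome X, 152016428 to 152062694, plus strand), had 126, 192, 214 and 215 CPM in knockout mice 1 to 4, against 183, 217, 236 and 250 CPM in floxed mice 1 to 4. The groups overlapped, with the single oocyte of knockout mouse 1 lowest. Smc1a had a log2 fold change of −0.28 (SE 0.17, 95% interval −0.67 to 0.10) and did not pass the test (edgeR adjusted p = 0.25). Smc3, the arm that both kinds of ring share (chromosome 19, 53600398 to 53645833, plus strand), had 304, 372, 362 and 361 CPM in knockout mice 1 to 4. Floxed mice 1 to 4 had 369, 411, 371 and 390 CPM, and the ranges overlapped. Its log2 fold change of −0.18 (SE 0.08, 95% interval −0.36 to 0.01) did not pass the test (edgeR adjusted p = 0.137). Across single oocytes Smc3 was the steadiest of the subunits, from 303.3 to 422.7 CPM in knockout and from 309.9 to 464.9 CPM in floxed oocytes. Without mouse 1 of both genotypes Smc1a passed the test (log2 fold change −0.26, edgeR adjusted p = 0.0163).

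Among the kleisins, the meiotic Rad21l (chromosome 2, 151645404 to 151668533, minus strand) was low and did not differ beyond the spread between mice. RAD21L acts early in meiotic prophase, at pairing of the homologues. It had 8.08, 8.53, 3.33 and 5.39 CPM in knockout mice 1 to 4 and 4.26, 5.19, 8.42 and 7.44 CPM in floxed mice 1 to 4. The ranges overlapped almost fully, and the means were 6.33 CPM in both genotypes (SD 2.44 in knockout and 1.94 in floxed mice). Its log2 fold change of −0.06 had a 95% interval from −0.92 to 0.81 (edgeR adjusted p = 0.931), so changes inside that interval were not excluded.

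Rad21, the mitotic kleisin that separase cleaves (chromosome 15, 51962240 to 51991747, minus strand), had 151, 247, 236 and 225 CPM in knockout mice 1 to 4. Floxed mice 1 to 4 had 143, 173, 178 and 183 CPM. Knockout mouse 1 lay among the floxed mice and the other 3 knockout mice lay above all of them. Rad21 had a log2 fold change of 0.31 (SE 0.16, 95% interval −0.04 to 0.65, edgeR adjusted p = 0.174), which did not pass the test. Without knockout mouse 1 it did (log2 fold change 0.40, edgeR adjusted p = 0.016). Of the single oocytes, 18 of 24 knockout oocytes lay above the highest floxed oocyte, at 212.0 CPM.

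Among the STAG proteins, the meiotic Stag3 (chromosome 5, 138280240 to 138312393, plus strand) fell 3.41-fold. STAG3 is the STAG protein of meiotic rings and is needed for their stability. Its level was 1.39, 2.54, 5.44 and 5.81 CPM in knockout mice 1 to 4, against 8.26, 10.8, 13.7 and 19.1 CPM in floxed mice 1 to 4. The groups did not overlap, and the values varied more than 2-fold within each genotype. On the log2 scale the fold change was −1.77 (SE 0.46, 95% interval −2.80 to −0.74, edgeR adjusted p = 0.0192). Without knockout mouse 2 the adjusted p was 0.0535 (log2 fold change −1.64), and without floxed mouse 4 it was 0.0616 (log2 fold change −1.52). Single knockout oocytes ranged from 0 to 13.9 CPM with a median of 4.11, and single floxed oocytes from 3.37 to 28.3 CPM with a median of 12.3. Of the 24 knockout oocytes, 23 lay below the floxed median.

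Stag1, a mitotic STAG protein (chromosome 9, 100597798 to 100959375, plus strand), rose 2.07-fold. It had 67.4, 156, 159 and 144 CPM in knockout mice 1 to 4, against 37.6, 49.97, 88.7 and 71.5 CPM in floxed mice 1 to 4. Knockout mouse 1 lay below 2 of the floxed mice, and the other 3 knockout mice lay above all floxed mice. Its log2 fold change was 1.05 (SE 0.32, 95% interval 0.33 to 1.77, edgeR adjusted p = 0.0377). This call was lost without knockout mouse 2, 3 or 4 or without floxed mouse 1, 2 or 4, with log2 fold changes of 0.84 to 1.13 and adjusted p from 0.0555 to 0.106. Single knockout oocytes ranged from 67.4 to 191.0 CPM with a median of 151, and single floxed oocytes from 15.3 to 98.3 CPM with a median of 62.5. Of the 24 knockout oocytes, 23 lay above the highest floxed oocyte.

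Stag2, the other mitotic STAG protein (chromosome X, 42149317 to 42277185, plus strand), had 135, 187, 211 and 192 CPM in knockout mice 1 to 4. Floxed mice 1 to 4 had 92.5, 100.3, 160 and 135 CPM, and knockout mouse 1 lay within that range. The log2 fold change of 0.53 (SE 0.20, 95% interval 0.09 to 0.97) did not pass the test across all genes (edgeR adjusted p = 0.0742). Without knockout mouse 1 the adjusted p was 0.0226 (log2 fold change 0.61), and without floxed mouse 3 it was 0.037 (log2 fold change 0.68). All 24 knockout oocytes lay above the floxed median of 115 CPM, and 10 lay above the highest floxed oocyte, at 206 CPM.

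**Figure D1:**
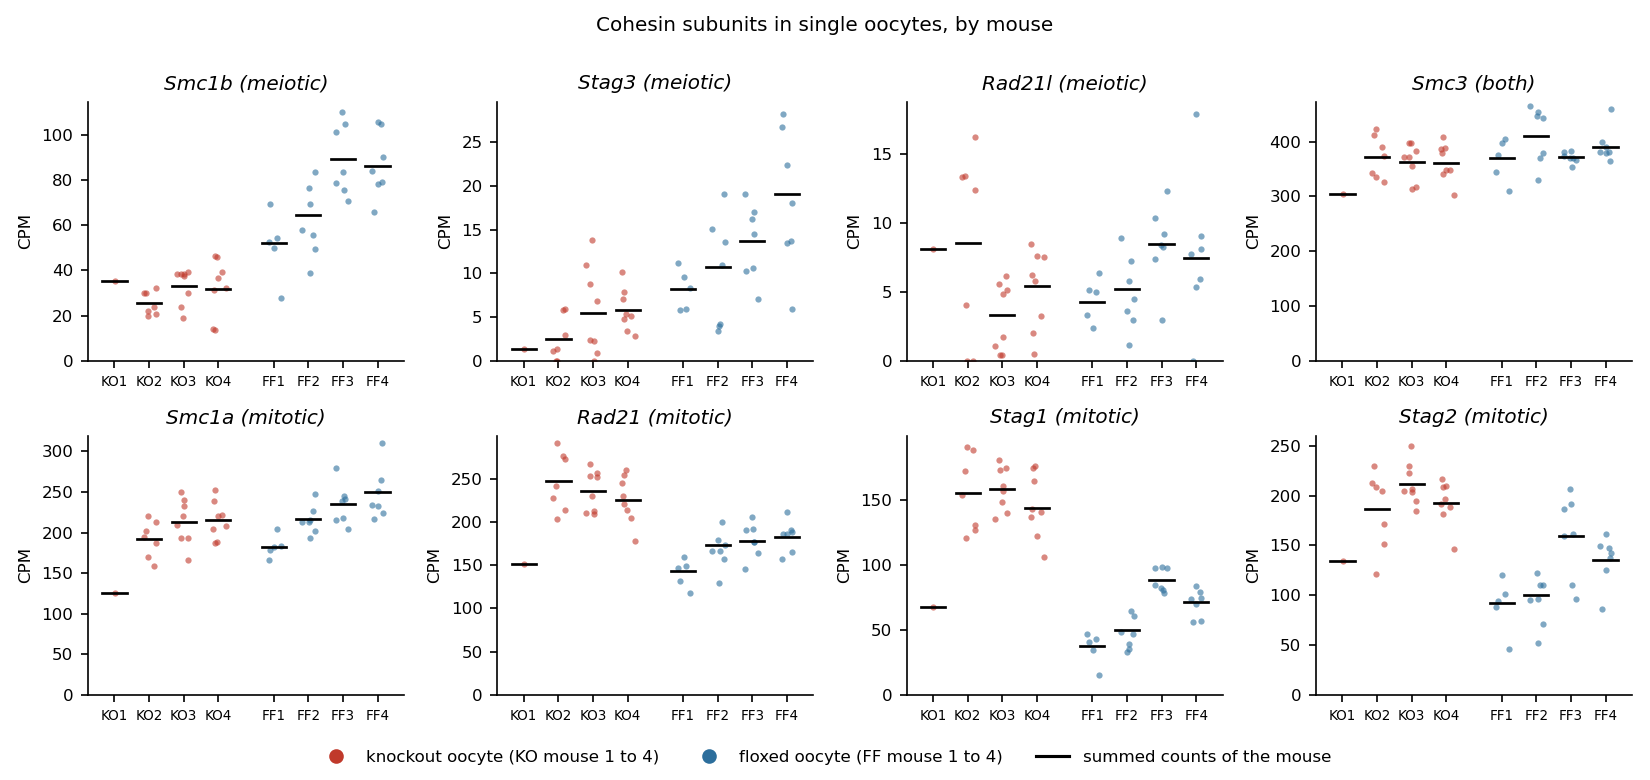
Level of each subunit (CPM, y axis, from 0) in every oocyte, by mouse (x axis, knockout mice 1 to 4 then floxed mice 1 to 4). Points are oocytes and black bars are the summed counts of a mouse. All 24 knockout oocytes lie below the floxed median of 76.0 CPM for Smc1b and above that of 62.5 CPM for Stag1.

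Counts also varied with sequencing depth. Across floxed oocytes, with mice pooled, counts grew faster than the library total for all subunits but Smc3. Slopes of log2 count on log2 total were 1.96 for Stag3, 1.91 for Stag1, 1.78 for Stag2, 1.57 for Smc1b and 0.94 for Smc3. Depth also differed by mouse, with 2997631 to 4545812 counts per oocyte in floxed mouse 1 and 5066690 to 6120317 in floxed mouse 3. The slopes therefore cannot tell depth from mouse. With 15 knockout and 16 floxed oocytes of like depth (4000000 to 5500000 counts, with a median of 4868708 in knockout and 5013920.5 in floxed oocytes), Smc1b remained lower (log2 fold change −1.21, edgeR adjusted p = 0.00336) and Stag1 higher (1.05, adjusted p = 0.0365). Stag2 passed the test there (0.58, adjusted p = 0.0318), and Stag3 did not (−1.30, adjusted p = 0.14).

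The meiotic and mitotic versions of a subunit are distinct in sequence, which bears on whether reads could be counted for the wrong version. SMC1β and SMC1α shared 52.1% of aligned residues (1248 and 1233 residues), STAG3 shared 51.2% with STAG1 and 51.0% with STAG2, and RAD21L shared 49.3% with RAD21. The closest pair, STAG1 and STAG2, shared 71.9%. Whole transcripts were also compared, taking for each gene the one with the longest coding sequence. The longest identical run was 23 bases for Stag1 with Stag2, and also for Smc1b with Smc1a. REC8 was farther from the other kleisins, at 27.1% of residues shared with RAD21 and 26.5% with RAD21L. Of the 8 subunits, Stag2 had an exonic overlap with another annotated gene, of 28 bases on the opposite strand.

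Because ZFP36L2 binds AU-rich elements, the heptamer TATTTAT was looked for on the transcribed strand of the longest annotated 3′ untranslated region. Of the 7 subunits with such a region of at least 20 bases, 3 held it, namely the mitotic Rad21 (1 match in 1816 bases), Stag1 (1 match in 1987 bases) and Stag2 (2 matches in 1899 bases). The 4 sites are shown with the heptamer in capitals, 5′ to 3′ on the transcribed strand, for Rad21 at chr15:51963212-51963240 (minus strand), Stag1 at chr9:100957218-100957246 (plus), and Stag2 at chrX:42275513-42275541 and chrX:42277119-42277147 (plus), all in mm10.
Rad21 site: ggcttctctgaTATTTATtataaatgtta
Stag1 site: aggtttattttTATTTATaagtgggcata
Stag2 first site: agtaaatatttTATTTATgcgctgttagt
Stag2 second site: ttgctgatttgTATTTATgtcttgagaca
These 3 subunits had positive log2 fold changes in knockout oocytes, but Rad21 and Stag2 did not pass the test and Stag1 did. They also had the longest regions searched. A link between the heptamer and the fold change was not tested. No match was found in Smc1a (885 bases), Smc1b (273 bases), Smc3 (1055 bases) or Stag3 (349 bases), and Rad21l had no region to search. The heptamer was present in 29.1% of 13936 tested genes, and the share depends on length. Among tested genes with a region within 20% of the same length it was 39.7% for Stag1, 38.8% for Stag2 and 37.4% for Rad21, but 7.7% for Smc1b and 8.1% for Stag3. The longer nonamer TTATTTATT was in none of the subunits and in 7.8% of tested genes. These matches describe the letters of the annotated regions, and binding was not measured.

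Setting the classes against each other within the same library, the meiotic subunits together had 9.40, 4.69, 5.10 and 5.55 counts per 100 counts of the mitotic subunits in knockout mice 1 to 4, against 14.2, 14.9, 16.8 and 17.7 in floxed mice 1 to 4. Every knockout mouse lay below every floxed mouse, and the ratio was 2.66-fold lower in knockout mice (log2 difference −1.41, where the SD between mice of a genotype was 0.34). No test is given for this score over chosen genes. Single knockout oocytes ranged from 2.39 to 9.40 with a median of 5.46, and single floxed oocytes from 10.2 to 21.4 with a median of 16.1. All 24 knockout oocytes thus lay below all 26 floxed oocytes, which none of the 8 subunits showed alone. Without mouse 1 of both genotypes the log2 difference was −1.69, and it was −1.38 in oocytes of like depth. Smc1b weighed most in the meiotic sum, at means of 31.5 CPM in knockout and 73.1 CPM in floxed mice. Rad21l had 6.33 CPM in both genotypes, and Stag3 had 3.79 CPM in knockout and 12.95 CPM in floxed mice. Without Smc1b and Smc1a, the subunit of each class with the most counts summed over all mice, the log2 difference was −1.44. The meiotic sum then held Rad21l and Stag3 alone.

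**Figure D2:**
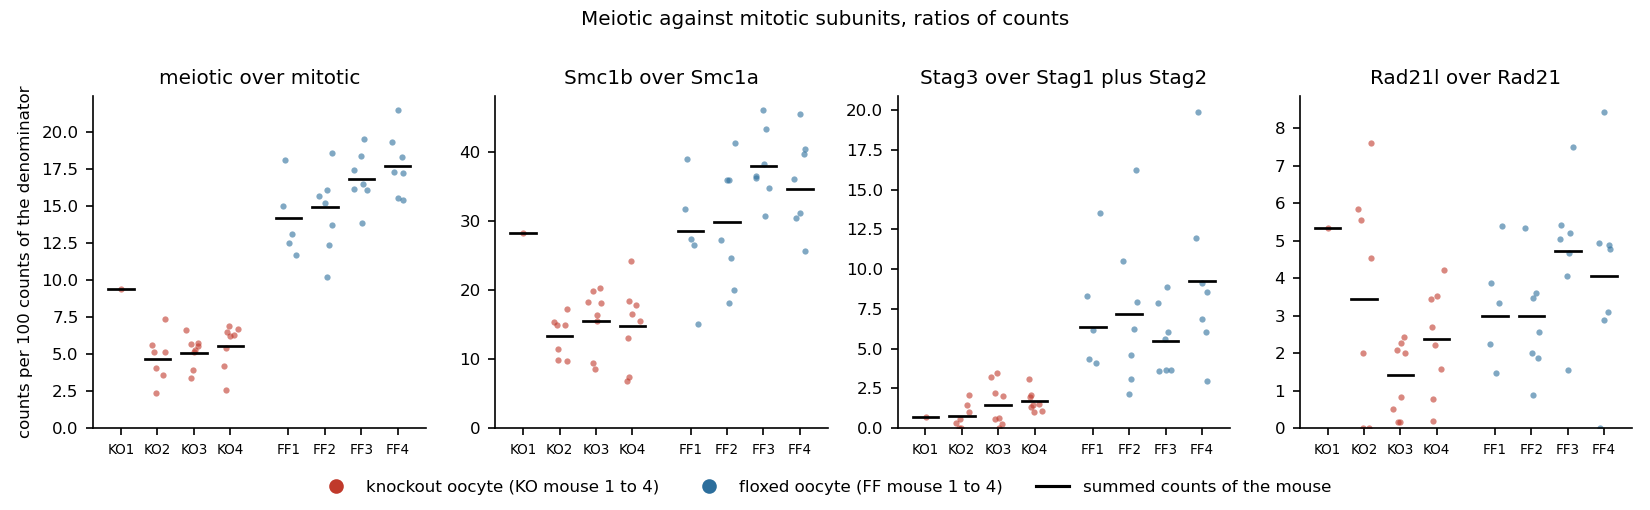
Counts of meiotic subunits per 100 counts of their mitotic counterparts (y axis, from 0) in every oocyte, by mouse (x axis, knockout mice 1 to 4 then floxed mice 1 to 4). Points are oocytes and black bars the summed counts of a mouse. For the summed meiotic over the summed mitotic subunits, without Rec8, the knockout oocytes end at 9.40 and the floxed oocytes begin at 10.2.

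The same ratio was taken for each kind of subunit. Smc1b per 100 counts of Smc1a was 28.3, 13.3, 15.5 and 14.8 in knockout mice 1 to 4, against 28.5, 29.8, 38.0 and 34.6 in floxed mice 1 to 4, so knockout mouse 1 all but met floxed mouse 1. Stag3 per 100 counts of Stag1 plus Stag2 was 0.686, 0.743, 1.47 and 1.73 in knockout mice 1 to 4, against 6.35, 7.17, 5.50 and 9.24 in floxed mice 1 to 4. This was the widest gap, 6.5-fold, with the groups apart and 20 of 24 knockout oocytes below every floxed oocyte. Rad21l per 100 counts of Rad21 was 5.35, 3.45, 1.41 and 2.39 in knockout mice and 2.98, 2.99, 4.72 and 4.07 in floxed mice, with overlap. Within the mitotic class, Stag1 per 100 counts of Stag2 was 50.1, 83.4, 75.3 and 75.1 in knockout mice and 40.6, 49.8, 55.5 and 52.8 in floxed mice, with knockout mouse 1 among the floxed mice.

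Shares were taken of the counts of the 8 subunits read, so Rec8 is in neither the meiotic sum nor the total. The meiotic subunits made up 3.90% ± 1.06 in knockout and 8.67% ± 1.34 in floxed mice (SD, n = 4 each). The mitotic subunits made up 64.1% ± 4.19 in knockout and 54.4% ± 3.09 in floxed mice, and Smc3 32.0% ± 3.19 in knockout and 37.0% ± 4.39 in floxed mice. The 8 subunits together took 827.3, 1190, 1224 and 1181 CPM in knockout mice 1 to 4, against 889.7, 1032, 1145 and 1142 CPM in floxed mice 1 to 4, so their total overlapped between the genotypes while its makeup shifted. Counts are not corrected for transcript length in these shares.

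Levels of different genes were compared per length, as RPKM, which scales counts by the length of the merged exons and by the library total. In knockout mice the order was Smc3 (63.1 ± 5.603 RPKM), Rad21 (50.8 ± 10.3), Smc1a (32.4 ± 7.27), Stag2 (21.9 ± 3.96), Stag1 (11.2 ± 3.67), Smc1b (7.79 ± 1.05), Rad21l (3.82 ± 1.47) and Stag3 (0.662 ± 0.379). In floxed mice it was Smc3 (69.5 ± 3.49 RPKM), Rad21 (40.0 ± 4.30), Smc1a (38.3 ± 5.01), Smc1b (18.1 ± 4.42), Stag2 (14.7 ± 3.79), Stag1 (5.26 ± 1.92), Rad21l (3.81 ± 1.17) and Stag3 (2.26 ± 0.812), all as SD over 4 mice. Smc1b thus stood between the SMC proteins and both mitotic STAG proteins in floxed mice, and below both of those STAG proteins in knockout mice.

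Not all of these steps exceed the spread between mice. In knockout mice the ranges of neighbours overlapped except between Stag2 and Stag1, Smc1b and Rad21l, and Rad21l and Stag3. In floxed mice they were apart between Smc3 and Rad21, Smc1a and Smc1b, and Stag2 and Stag1. With the longest annotated transcript as the length, the floxed order put Smc1a (47.2 RPKM) before Rad21 (42.8) and Stag2 (19.8) before Smc1b (18.1), and the knockout order was as given.

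**Figure D3:**
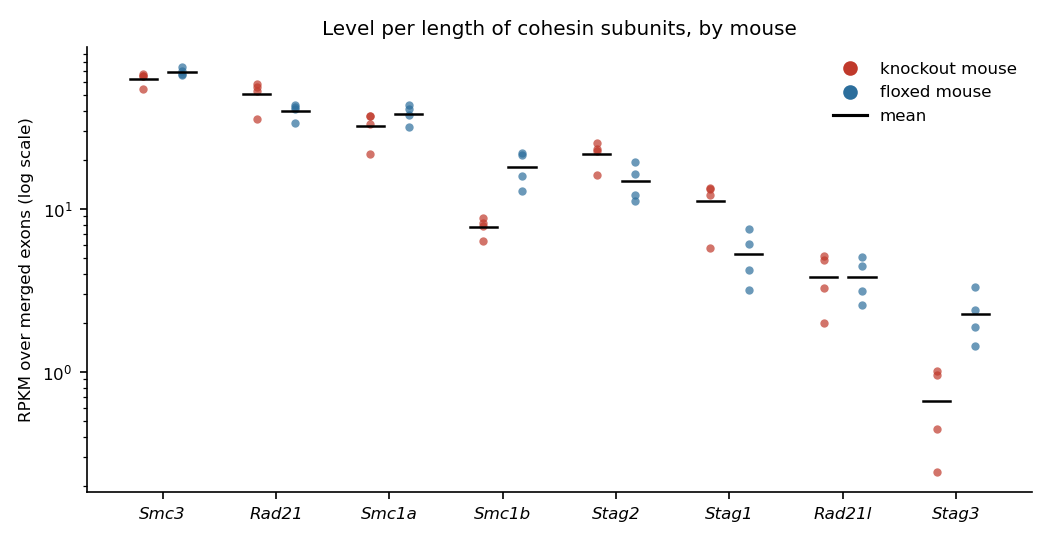
Level per length of each subunit (RPKM over merged exons, log scale on the y axis) in knockout and floxed mice, with subunits on the x axis in the order of the floxed means. Points are mice and black bars the means of 4 mice. Smc1b averages 7.79 RPKM in knockout and 18.1 RPKM in floxed mice, while Smc3 averages 63.1 RPKM in knockout and 69.5 RPKM in floxed mice.

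Most subunits were found in every oocyte. After thinning to 3000000 counts, which leaves out 3 floxed oocytes, Rad21, Smc1a, Smc1b, Smc3, Stag1 and Stag2 had counts in all 24 knockout and all 23 floxed oocytes. Stag3 had a count in 21 of 24 knockout oocytes (87.5%, exact 95% interval 67.6% to 97.3%) and in 23 of 23 floxed oocytes (100%, 85.2% to 100%). Rad21l had a count in 22 of 24 knockout oocytes (91.7%) and in 22 of 23 floxed oocytes (95.7%). With at least 5 counts required, Rad21l was found in 66.7% of knockout and 95.7% of floxed oocytes, although its mean level was the same in both. The intervals cover no more than counting error, because PCR copies are not independent and oocytes of a mouse share their source.

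The spread between oocytes of a mouse was taken as the SD of log2(CPM + 1), as the median over 3 knockout and 4 floxed mice. Genes of like level were those with a similar mean CPM over all 50 oocytes, and were not matched within each genotype. Stag2 stood out by its spread in floxed oocytes, with an SD of 0.18 in knockout mice and 0.42 in floxed mice, where genes of like level had 0.18 in knockout and 0.17 in floxed mice. Per mouse the Stag2 SD was 0.14 to 0.33 in knockout and 0.30 to 0.52 in floxed mice, so the genotypes overlapped. Total counts ran from 4332108 to 6233840 in knockout and from 1746007 to 6120317 in floxed oocytes. The part of depth in these spreads was not tested. Stag3 had an SD of 1.17 in knockout and 0.59 in floxed mice (for genes of like level, 0.74 in knockout and 0.64 in floxed mice), and Rad21l one of 1.01 in knockout and 0.65 in floxed mice (for genes of like level, 0.82 in knockout and 0.70 in floxed mice). For both the SDs of single mice overlapped, at 0.51 to 1.38 in knockout and 0.37 to 0.92 in floxed mice for Stag3, and at 0.94 to 1.84 in knockout and 0.45 to 1.32 in floxed mice for Rad21l. Stag3 averaged 3.79 CPM in knockout and 12.95 CPM in floxed mice, so its genes of like level were not at its level within a genotype. Smc3 had an SD of 0.14 in knockout and 0.13 in floxed mice, beside 0.13 for genes of like level in both genotypes.

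After the mean of each mouse was removed, subunits correlated weakly across oocytes, with a median Pearson correlation over 28 gene pairs of 0.035 in 23 knockout oocytes and 0.16 in 26 floxed oocytes. The highest values were 0.70 for Rad21 with Stag1 in knockout oocytes and 0.77 for Smc1b with Stag2 in floxed oocytes. Smc1b with Stag2 gave 0.11 in knockout oocytes. These oocytes share mice and differ in depth, and the slopes on depth were 0.92 for Smc1b and 1.45 for Stag2 in knockout oocytes, against 1.57 and 1.78 in floxed oocytes. The part of depth in these correlations was not tested, and they are descriptions.

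Proteins that load, release, protect or cleave cohesin were read from the same fit, in a list that also held Aurkb, Aurkc and Ctcf. Of the 24 listed genes, 8 rose (14.4% of all genes did) and none fell (13.2% of all genes did). The median log2 fold change of the 24 was 0.20 beside −0.006 over all genes. At an unadjusted p under 0.05, 11 were higher and 4 lower by edgeR, and DESeq2 called 9 higher and 1, Aurkc, lower. The groups did not overlap for 9 of the 24, against 31.0% of all genes. Lists of this size give no test here.

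The PDS5 proteins, which sit on the ring and govern both its release and its upkeep, rose most among the regulators. Pds5a had 70.2, 52.0, 46.3 and 40.0 CPM in knockout mice 1 to 4, against 21.5, 19.4, 18.7 and 22.4 CPM in floxed mice 1 to 4. The groups were far apart, and the rise was 2.47-fold (edgeR adjusted p = 0.00203). Pds5b had 160, 181, 180 and 160 CPM in knockout mice 1 to 4, against 67.2, 81.3, 109 and 76.8 CPM in floxed mice 1 to 4, a 1.98-fold rise (edgeR adjusted p = 0.00195). Wapal, the release factor that works with PDS5, did not pass the test (373.8 ± 41.7 CPM in knockout and 461 ± 72.1 CPM in floxed mice, log2 fold change −0.34, edgeR adjusted p = 0.0845). Without floxed mouse 1 it passed (log2 fold change −0.49, adjusted p = 0.00603). Nipbl, the loader, averaged 460.2 ± 60.9 CPM in knockout and 449.7 ± 90.9 CPM in floxed mice (log2 fold change −0.01, adjusted p = 0.974).

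**Figure D4:**
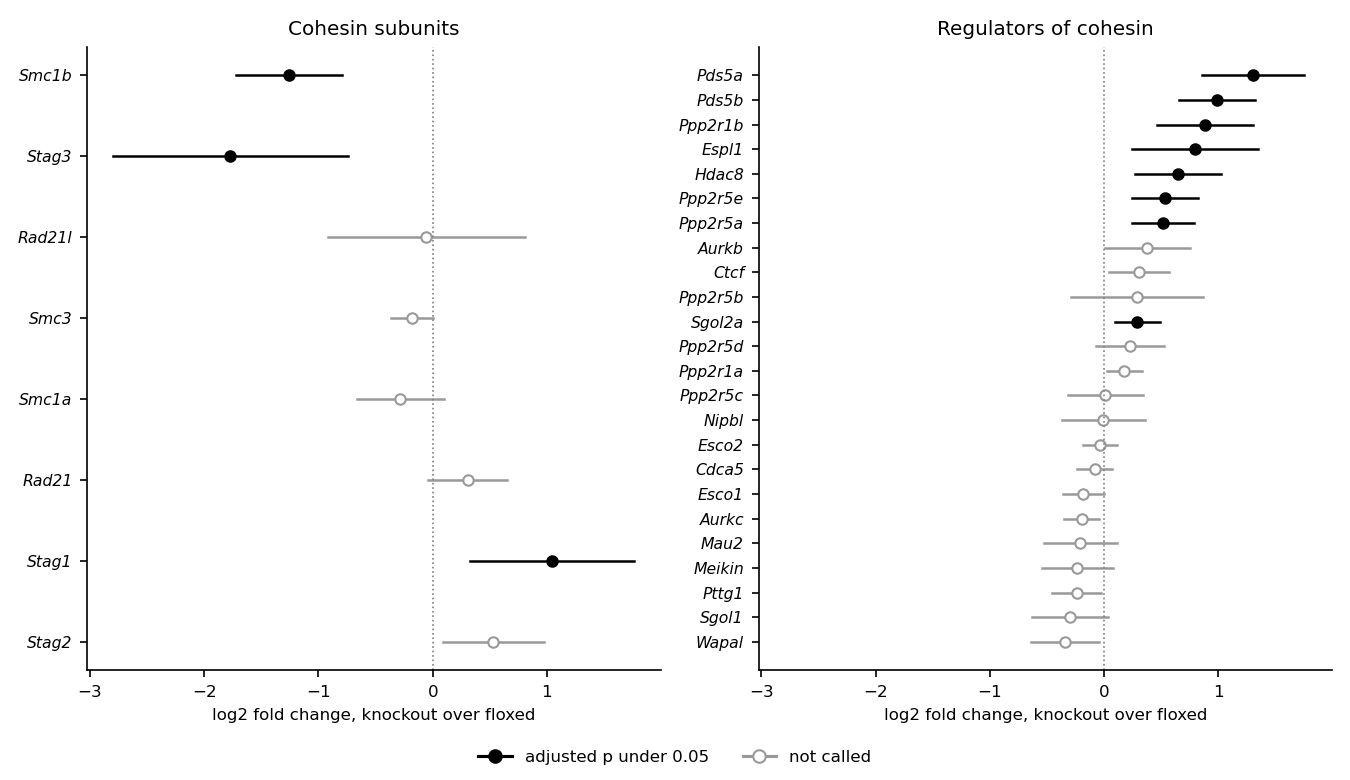
Log2 fold change of knockout over floxed mice (x axis) for the 8 cohesin subunits, left, and the 24 regulators, right. Points are edgeR estimates, lines are 95% intervals, and filled black points have an adjusted p under 0.05. Smc1b and Stag3 lie left of 0, Stag1 and 8 regulators lie right of it.

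Among the factors that protect or cut cohesin are the subunits of the phosphatase PP2A, which shugoshin brings to centromeres to shield meiotic cohesin. Of 7 such subunits 3 rose, where 14.4% of all genes did, and the other 4 did not pass the test, with log2 fold changes of 0.18 for Ppp2r1a, 0.29 for Ppp2r5b, 0.01 for Ppp2r5c and 0.23 for Ppp2r5d. Ppp2r1b, a scaffold subunit, rose 1.85-fold (82.3 ± 16.8 CPM in knockout and 43.3 ± 7.48 CPM in floxed mice, edgeR adjusted p = 0.00783). The regulatory subunits Ppp2r5a and Ppp2r5e rose 1.43-fold (57.7 ± 3.17 and 39.4 ± 2.52 CPM in knockout and floxed mice, adjusted p = 0.0127) and 1.44-fold (84.6 ± 6.17 and 57.1 ± 7.67 CPM in knockout and floxed mice, adjusted p = 0.0149). Sgol2a, the shugoshin of oocyte centromeres, rose 1.22-fold, with 228.4 ± 15.3 CPM in knockout and 181.9 ± 14.6 CPM in floxed mice (adjusted p = 0.0337). The related Sgol1 (log2 fold change −0.30, edgeR adjusted p = 0.164), Meikin, a meiotic kinetochore protein (−0.23, 0.245), and Pttg1, which encodes the separase inhibitor securin (−0.24, 0.0927), did not pass the test, and Sgol1 and Pttg1 were called lower without mouse 1 of both genotypes. Espl1, which encodes separase, rose 1.74-fold with overlap of the groups (188.2 ± 52.4 CPM in knockout and 105.8 ± 33.6 CPM in floxed mice, adjusted p = 0.0392). Hdac8, which removes the acetyl mark from SMC3, rose 1.56-fold (68.3 ± 13.8 CPM in knockout and 42.6 ± 4.50 CPM in floxed mice, adjusted p = 0.0199).

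Of these 8 calls, those of Pds5a, Pds5b and Ppp2r1b held under all 16 alternatives. Without knockout mouse 2 the other 5 were lost, with adjusted p of 0.0907 for Espl1, 0.146 for Sgol2a, 0.0676 for Hdac8, 0.0727 for Ppp2r5a and 0.0558 for Ppp2r5e. Without knockout mouse 4, Ppp2r5a (0.0634), Hdac8 (0.0659), Sgol2a (0.0831) and Espl1 (0.109) were lost, and without knockout mouse 3, Sgol2a (0.077) and Hdac8 (0.079). Espl1 was also lost without knockout mouse 1 (0.106), and without floxed mouse 2 (0.0721), 3 (0.0962) or 4 (0.107). Sgol2a was lost without floxed mouse 1 (0.0541), 2 (0.0895) or 4 (0.0706), and Hdac8 without floxed mouse 2 (0.0617). With all oocytes of a mouse weighted equally, Espl1 (0.0713) and Sgol2a (0.0585) were lost, and Sgol2a also in oocytes of like depth (0.0962).

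The related SMC complexes were read from the same fit. Condensin, which compacts chromosomes, had 1 of 8 subunits higher and none lower (by edgeR and by DESeq2, and also at an unadjusted p under 0.05), where 14.4% of all genes were higher and 13.2% lower. The median log2 fold change was −0.01, and the groups did not overlap for 1 of 8, against 31.0% of all genes. The subunit that rose was Smc2, the SMC arm common to both condensins, with 148, 203, 204.1 and 180 CPM in knockout mice 1 to 4, against 106, 95.04, 119 and 94.1 CPM in floxed mice 1 to 4. The groups did not overlap, and the rise of 1.73-fold held under all 16 alternatives (edgeR adjusted p = 0.00211). Smc4, its partner, had 606.2 ± 51.9 CPM in knockout and 634.1 ± 61.4 CPM in floxed mice (log2 fold change −0.10, adjusted p = 0.441).

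Of the 8 genes read for the SMC5/6 complex, which acts in recombination and repair, edgeR called 1 lower and none higher, beside 13.2% and 14.4% of all genes, with a median log2 fold change of −0.19. The groups did not overlap for 3 of 8, against 31.0% of all genes. At an unadjusted p under 0.05, 4 were lower and none higher, and DESeq2 called 2 lower, Nsmce2 and Smc6. Nsmce2, its SUMO ligase, had 171.1 ± 5.42 CPM in knockout and 199.5 ± 8.05 CPM in floxed mice, without overlap (log2 fold change −0.26, edgeR adjusted p = 0.0273). That call was lost without knockout mouse 3 (adjusted p = 0.0533) or floxed mouse 2 (0.0661) or 4 (0.0853), and in oocytes of like depth (0.121).

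Among 9703 genes with a mean of at least 10 CPM, the 3 whose log2 CPM over the 8 mice was most like that of Smc1b were Xrcc6 (Pearson correlation 0.994), Ift81 (0.991) and Cdc42ep2 (0.989). These 8 points share the genotype difference, so genes that fell alike score high. Xrcc6 encodes the Ku70 protein of DNA end joining and fell less in size than Smc1b (log2 fold change −0.48, 138 CPM in knockout and 188 CPM in floxed mice). Ift81 encodes a protein of ciliary transport and also fell (log2 fold change −0.92, 75.5 CPM in knockout and 139 CPM in floxed mice). Cdc42ep2, an effector of the GTPase CDC42, had 120 CPM in knockout and 137 CPM in floxed mice and was not called. Of the other subunits, Stag3 followed Smc1b most closely (0.858), then Smc1a (0.502) and Smc3 (0.468), while Stag1 (−0.578), Rad21 (−0.52) and Stag2 (−0.505) had negative values. These values carry the genotype difference too. Across floxed oocytes, with the mean of each mouse removed, Smc1b correlated at 0.77 with Stag2, 0.58 with Rad21 and 0.49 with Stag1. Across knockout oocytes it correlated at 0.11 with Stag2, −0.32 with Rad21 and 0.01 with Stag1.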

How the data were processed

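Single-oocyte RNA-seq counts were analysed for 24 knockout and 26 floxed oocytes. Per the labels' protocols, the SMARTer Ultra Low Input kit was used, which amplifies cDNA by PCR without molecular identifiers or strand marking. Raw whole-number counts per gene were deposited by the authors. STAR and mm10 are named in the submitters' processing notes, while the sources used here do not give the counting tool. Titles of the samples gave the group and mouse. Oocytes were summed per mouse and tested with edgeR 4.0.16 in R 4.3.3 across all genes (TMM, filterByExpr with a minimum count of 10, robust quasi-likelihood test, Benjamini-Hochberg adjustment, threshold 0.05), which kept 15029 genes. DESeq2 1.42.0 was an alternative. CPM are shares of a total without TMM, and fold changes are from the fit. No 2 oocytes of 1 mouse (150 pairs) were alike enough to be copies of a library (chi-square per degree of freedom at least 5.39), which shows nothing more, as PCR copies are counted. Lengths, coordinates and 3′ UTRs were taken from the GENCODE annotation for mm10, matched by RefSeq accession (16350 rows) or symbol (186 rows). Protein identities come from translated GENCODE coding sequences, aligned globally with Biopython 1.88. The subunits, the lists and the rule for named genes (all subunits, the called genes of the lists, Nipbl, Wapal, Sgol2a, Espl1, Zfp36l2 and the 3 genes most like Smc1b) were chosen with earlier results of these data known, so counts over them are descriptions. Alternatives covered normalization, test, filter, depth, weights, pairing and single mice. Ppp2r1a, Ppp2r5b, Ppp2r5c, Ppp2r5d, Sgol1, Meikin, Pttg1, Smc4, Aurkc, Smc6 and the markers were named after they were seen.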

Additional observations from a re-analysis of the deposited data

Results flagged for a closer look

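In groups of 4 mice, a sample was marked where its gap to the nearest other exceeded Dixon's 95% critical value. Of 52 groups looked at, 4 held such a sample, where chance gives about 1 in 20. Knockout mouse 1, the single oocyte, stood apart in 3 of them. Its Smc3 level was 304 CPM, against 361 to 372 CPM in the other knockout mice. Its Stag1 level was 67.4 CPM, against 144 to 159 CPM in the other knockout mice. Its Smc1b was 28.3 counts per 100 counts of Smc1a, against 13.3 to 15.5 in the other knockout mice. Knockout mouse 2 stood apart for Sgol2a, at 251 CPM, against 218 to 222 CPM in the other knockout mice.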

How the results depend on the processing

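The meiotic to mitotic log2 ratio, −1.41, ran from −1.63 to −1.30 without single mice, was −1.17 per base of transcript and kept its sign under all alternatives run. Subunits called lower numbered 2, 3 without mouse 1 of both genotypes (Smc1a, Smc1b, Stag3), 1 in oocytes of like depth (an alternative chosen after seeing the data) and 1 to 2 without single mice. Subunits called higher numbered 1, 3 without mouse 1 of both genotypes (Rad21, Stag1, Stag2), 2 at like depth and 0 to 3 without single mice. Regulators called higher numbered 8, and 3 to 7 without single mice. Regulators called lower numbered 0, 1 with RLE size factors, DESeq2 or equally weighted oocytes, 2 in oocytes of at least 3000000 counts, 5 without mouse 1 of both genotypes and 0 to 3 without single mice. The log2 fold change of Rad21l ran from −0.29 to 0.13 and that of Nipbl from −0.18 to 0.09 without single mice, changing sign. The heptamer was in 3 subunits and the nonamer in 0. Deviations of same-numbered knockout and floxed mice correlated at 0.32, −0.01, 0.25 and 0.18, against −0.29 to 0.19 for mice of different numbers. The labels do not say that the numbers pair the genotypes, so the main fit did not take them as pairs. Whether the numbers mark a shared block was not tested. With the replicate block, 4 subunits were lower (Smc1a, Smc1b, Smc3, Stag3) and 3 higher (Rad21, Stag1, Stag2), 4 regulators were lower, and Nipbl was at 0.01. Over all genes, 2164 were higher and 1984 lower, against 2876 and 2947 with the replicate block, 3182 and 3549 without mouse 1 of both genotypes, 1359 and 1556 without knockout mouse 2, 1374 and 1642 without knockout mouse 3, and 1509 and 1219 without floxed mouse 4. The causes of these differences were not tested. Depth limits Stag3 and Rad21l, which had median thinned counts of 13.5 and 16 in knockout and 42 and 20 in floxed oocytes.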
